A study of Mus musculus with 28 samples.

Results

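Total interfollicular epidermis (IFE), the epidermis between the hair follicles, was compared between back and tail skin of mice. Of the 28 RNA-seq libraries of the series, 14 were prepared from total IFE cells and enter the comparison, and the other 14, from cells labelled by the line's marker, served only to estimate the spread. The total libraries were chosen by their label alone, and no measured value was used. Back skin is represented by 8 libraries, 3 of the Slc1a3 line, 3 of the Aspm line and 2 of the K14 line. Tail skin is represented by 6 libraries, 2 each of the Slc1a3, Aspm and Dlx1 lines. Each line carries a tamoxifen-dependent Cre (CreER) under the gene that names it, together with tdTomato at Rosa as the reporter, and is otherwise labelled wild type. Tamoxifen was given to every animal daily for 5 days from postnatal day 30 to 34, and skin was harvested 2 weeks later at postnatal day 49, in telogen, the resting phase of the hair cycle. All groups therefore carry a CreER allele and the reporter and had tamoxifen, and K14 occurs only in back and Dlx1 only in tail. The labels do not say whether libraries come from separate animals, or whether back and tail skin of a line come from the same ones. Each total library shares its line, site and replicate number with a labelled library, and the fit took them as independent. A p-value therefore speaks of the spread between these libraries, which may be technical.

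The IFE is a stratified epithelium in which basal keratinocytes divide and attach to the basement membrane, and their descendants move outward, join by desmosomes and tight junctions, and build a water barrier from cross-linked proteins and a lipid mixture of ceramides, cholesterol and fatty acids. Mouse back skin carries dense hair and a thin epidermis. Tail skin carries sparse hair in rows and a thick epidermis that alternates between scale and interscale territories, with different keratins and a different cornified layer. Hox genes mark position along the body. Hox, hard keratin, interferon and follicle genes are left aside here, and the comparison is followed through metabolism, junctions, channels and transporters, secreted factors, matrix, proteases, transcription factors and receptors.

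Depth ran from 7738262 to 31498520 counts in the back totals and from 15279655 to 29742937 in the tail totals. At these depths 3 counts, the floor used for a gene at 0, amount to 0.101 to 0.383 CPM in back and 0.0920 to 0.207 CPM in tail libraries. Levels are given in CPM, the read count of a gene relative to the scaled size of its library, and where 3 levels are given for a site they are the lowest, the median and the highest library. Differences are log2 of back over tail with their standard errors (SE), each line weighted equally within a site. The quasi-likelihood test of edgeR was run on 17493 genes, and Benjamini-Hochberg adjustment was made over all of them. A gene passed with an adjusted p under 0.05. One library stood apart, back Slc1a3 replicate 4, with the lowest depth, 14436 genes with a count and 0.208% mitochondrial counts, against 19265 to 21347 genes and 1.39 to 1.98% in the other back totals. Libraries of a group correlated at r = 0.955 to 0.986 over genes, except that this one reached 0.855 and 0.866 with its group. The kit did not keep strand, so values of overlapping genes are uncertain, and so are those of genes with near-identical copies.

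The site labels were checked against 3 genes. Krt77, a suprabasal keratin, measured 1224, 2107 and 3304 CPM in back and 1.995, 3.33 and 5.58 CPM in tail libraries. Krt84, a hard keratin of tail scales, measured 0, 0.285 and 2.82 CPM in back and 997, 1620 and 2594 CPM in tail libraries, and H2-Q7, a class I histocompatibility gene, measured 188, 317 and 381 CPM in back and 0.153, 0.469 and 0.826 CPM in tail libraries. All 3 separated the sites without overlap, as the labels have it. They were chosen with earlier results of these data known, so they are no independent check of the labels. Keratinocyte markers were high at both sites, with the summed level of 8 basal markers at 44210 to 69390 CPM in back and 62620 to 96040 CPM in tail libraries, and of 14 spinous and granular markers at 8249 to 16400 CPM in back and 8324 to 11350 CPM in tail.

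Markers of other cell types also differed between the sites, although the summed levels of some lists overlapped. Over all genes tested 23% were higher and 22.5% lower in back. Of 9 sebaceous gland markers tested 8 were lower and 0 higher in back by edgeR (0 higher also at an unadjusted p under 0.05 and by DESeq2), with summed levels of 1.40 to 10.1 CPM in back and 17.7 to 151.8 CPM in tail. Of 12 bulge and hair germ markers 9 were lower in back, at 312 to 708 CPM in back and 823 to 1721 CPM in tail. Of 10 fibroblast markers 3 were lower and 1 higher (30% and 10%), and 6 did not pass, so the count alone sets this list little apart from all genes. Their sums did not overlap, at 33.0 to 71.9 CPM in back and 156.8 to 246.7 CPM in tail. Of 10 Langerhans cell markers 8 were higher and 1 lower, at 83.1 to 219 CPM in back and 72.3 to 145.6 CPM in tail, and of 10 markers of cycling cells 6 were lower, at 175.7 to 669 CPM in back and 503 to 662 CPM in tail. Of 10 upper follicle markers 6 were lower and 2 higher, at 802 to 1125 CPM in back and 1042 to 1552 CPM in tail. Of 8 nerve and glia markers 3 were higher and 1 lower, with sums of 137.8 to 186.6 CPM in back and 63.4 to 91.9 CPM in tail that did not overlap. The lower one was Sox10, and the glial genes S100b and Sox10 reached at most 0.281 and 0.725 CPM in back and 0.509 and 0.594 CPM in tail. In bulk samples fewer cells of a type and less RNA per cell cannot be told apart, and the part of these cells in the gene groups below was not tested.

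The site difference reached 45.5% of all genes. Of 17493 genes 7955 passed, 4027 higher in back (23%) and 3928 lower (22.5%), and 3699 of them differed at least 2-fold (21.1%). The median difference over all genes was 0.02 on the log2 scale and the median size 0.53. For 3072 genes (17.6%) all 8 back libraries lay on one side of all 6 tail libraries. These shares are the background for every list that follows. The lists are described by their counts and medians and were drawn up with earlier results of these data known. A list member named without being among the largest separated differences of its list was chosen after its values were seen. Passing genes named for the largest differences had to separate all 8 back from all 6 tail libraries. A lack of overlap in them was thus a condition of naming and not a result.

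**Figure D1:**
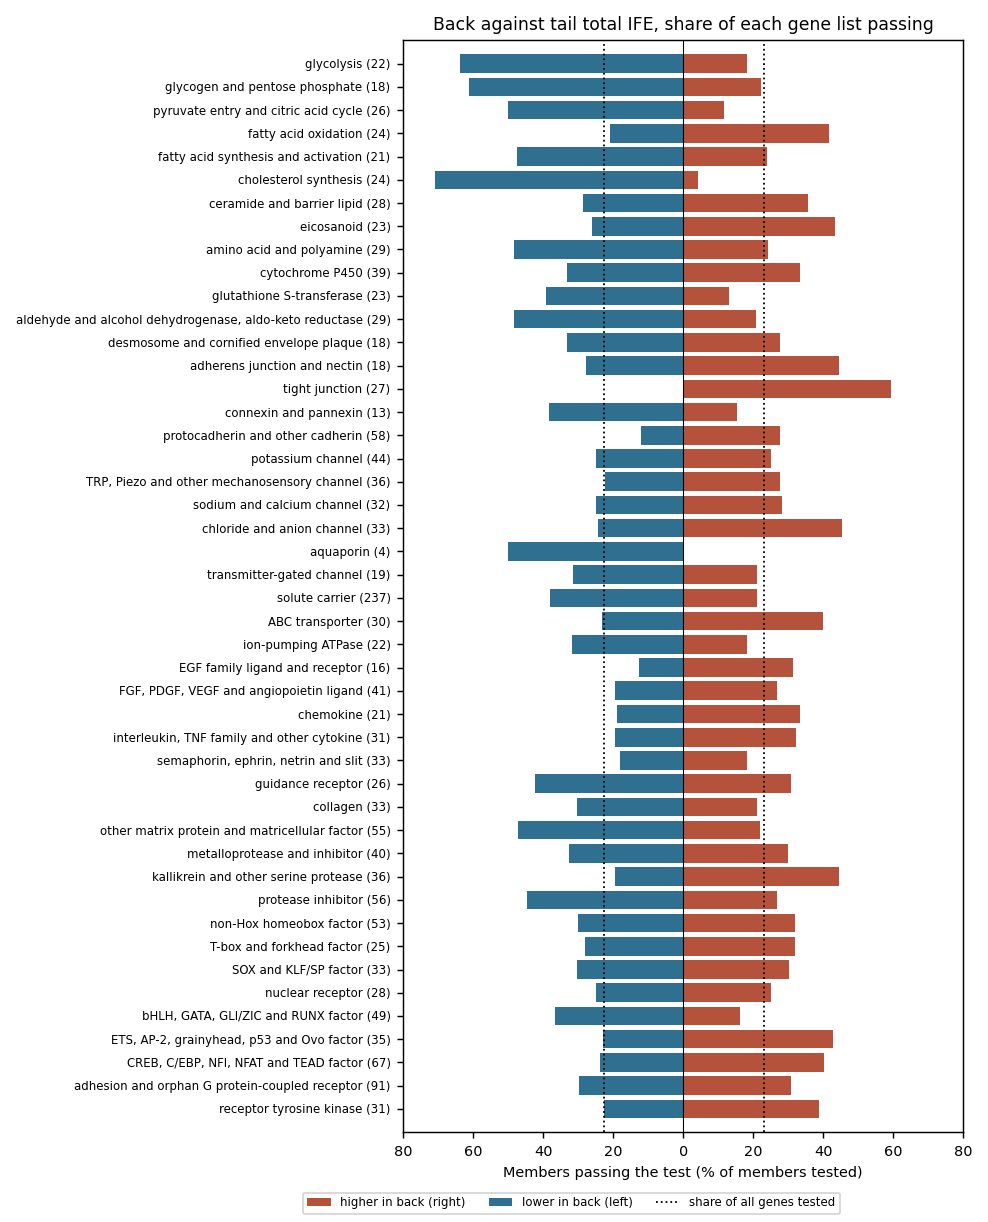
Share of the tested members of each of 46 gene lists that passed in the comparison of back with tail total IFE, with the number tested in brackets. Bars to the right give members higher in back and bars to the left members lower in back, both in percent of members tested, and dotted lines mark the shares over all genes, 23% and 22.5%. Tight junction genes reach 59.3% to the right with none to the left, and cholesterol synthesis genes 70.8% to the left.

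Outside the lists the largest differences were near presence and absence. Skint7, a keratinocyte member of a butyrophilin-like family with close copies, measured 68.6, 115 and 185 CPM in back and 0, 0.0307 and 0.127 CPM in tail libraries (log2 10.99, SE 0.32, adjusted p = 6.32e-18). Pkib, an inhibitor of protein kinase A, measured 40.2, 55.8 and 86.8 CPM in back and 0, 0.0393 and 0.344 CPM in tail libraries (log2 10.005, SE 0.39, adjusted p = 1.6e-15). Lama1, a laminin chain of basement membranes, measured 40.5, 81.2 and 135 CPM in back and 0, 0.128 and 0.382 CPM in tail libraries (log2 9.14, SE 0.48, adjusted p = 1.13e-12). Every back library exceeded every tail library in these 3 genes, and the tail levels lay near the floor. Rspo3, a secreted amplifier of Wnt signals, stayed under 0.2 CPM in every tail library and at 12.3 to 26.1 CPM in back (log2 8.58, SE 0.35, adjusted p = 2.83e-14). Tgm7, a transglutaminase, and Cfap57, a ciliary protein, were likewise at 24.1 to 53.5 and 28.1 to 76.5 CPM in back and at 0 to 0.527 and 0 to 0.413 CPM in tail.

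In the other direction Krt2, a suprabasal keratin, measured 6.83, 8.10 and 15.9 CPM in back and 4105, 4664 and 5461 CPM in tail libraries (log2 -9.06, SE 0.54, adjusted p = 6.01e-11). Krt90, another keratin, followed at 0, 0.0171 and 0.128 CPM in back and 7.77, 14.8 and 26.8 CPM in tail libraries (log2 -9.36, SE 0.43, adjusted p = 9.19e-14). Hhip, a surface protein that binds Hedgehog ligands, had 2 reads in all 8 back libraries and 5.43 to 20.8 CPM in tail libraries, a ratio of tail over back of 909.5 with a 95% counting interval from 251 to 7517. Olah, a thioesterase that releases medium-chain fatty acids, had 1 read in back and 8.62 to 16.9 CPM in tail, a ratio of tail over back of 2129 (interval 381.7 to 84140). Intervals and floors cover counting error only. Fam20a, a secretory pathway pseudokinase, Prkg2, a kinase driven by cyclic GMP, and Car2, a carbonic anhydrase, had back medians of 0 CPM and tail medians of 19.7, 8.39 and 14.3 CPM. Mettl7a3 was at 0 to 1.54 CPM in back and 242 to 432 CPM in tail, but belongs to a cluster of near-identical copies.

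Transcripts of sugar metabolism were lower in back IFE at most steps. Of 22 glycolysis genes tested 14 were lower and 4 higher in back, with a list median of -0.45 on the log2 scale, against 22.5% lower, 23% higher and a median of 0.02 over all genes. The lower members ran from glucose entry to lactate. Glucose entry through Slc2a1 measured median 228 CPM in back and 318 CPM in tail (log2 -0.51, adjusted p = 0.00275), and Hk2, an inducible hexokinase, median 14.3 CPM in back and 38.9 CPM in tail (log2 -1.09, adjusted p = 6.85e-06). Gapdh, of the payoff phase, measured 129.6, 154 and 223 CPM in back and 235, 369 and 468 CPM in tail libraries (log2 -1.10, SE 0.092, adjusted p = 7.02e-10). Every back library lay below every tail library. Pkm, pyruvate kinase, measured 507, 579 and 1159 CPM in back and 948, 1478 and 1700 CPM in tail libraries (log2 -1.06, SE 0.14, adjusted p = 9.72e-07). Ldha, lactate dehydrogenase, measured 378, 479 and 671 CPM in back and 548, 815 and 1147 CPM in tail libraries (log2 -0.73, SE 0.11, adjusted p = 7.46e-06). The back and tail ranges of Pkm and of Ldha overlapped.

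The 4 members higher in back were Pfkfb3, Pfkp, Pfkl and Slc16a3. Pfkfb3, which makes the activator of phosphofructokinase, measured 15.2, 22.3 and 29.8 CPM in back and 2.96, 6.51 and 12.02 CPM in tail libraries (log2 1.82, SE 0.23, adjusted p = 6.52e-07). The platelet isoform Pfkp measured 306, 348 and 368 CPM in back and 221, 239.5 and 266 CPM in tail libraries (log2 0.51, SE 0.073, adjusted p = 4.3e-06). Both were higher in back without overlap. The liver isoform Pfkl overlapped between sites at medians of 165 CPM in back and 132 CPM in tail (log2 0.31, adjusted p = 0.00872) and did not pass in the Slc1a3 and Aspm lines alone. The muscle isoform Pfkm was lower (log2 -0.67, adjusted p = 1.07e-06). The lactate transporter Slc16a1 (MCT1) measured 5.16, 7.52 and 16.6 CPM in back and 25.5, 32.5 and 43.4 CPM in tail libraries (log2 -2.03, SE 0.25, adjusted p = 4.66e-07), whereas Slc16a3 (MCT4), an exporter of glycolytic cells, was higher in back (median 21.6 CPM in back and 12.01 CPM in tail, log2 0.91, adjusted p = 0.00114). Hk1 and Aldoa, at medians of 172 and 466 CPM in back and 179.8 and 556 CPM in tail, did not pass (log2 -0.05, adjusted p = 0.712 and log2 -0.11, adjusted p = 0.385).

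Glycogen handling and the pentose phosphate pathway leaned the same way, with 11 of 18 genes lower and 4 higher in back and a median of -0.78. Ppp1r3b, of a family of subunits that direct a phosphatase to glycogen, measured 0, 0.446 and 1.16 CPM in back and 5.87, 8.43 and 14.9 CPM in tail libraries (log2 -4.55, SE 0.45, adjusted p = 1.31e-08). Its relative Ppp1r3c measured 0, 0.261 and 0.858 CPM in back and 2.27, 5.003 and 13.8 CPM in tail libraries (log2 -4.23, SE 0.56, adjusted p = 1.38e-06), whereas Ppp1r3d, which is not in the list, was higher in back (log2 2.50, adjusted p = 4.69e-05). Pygl, a glycogen phosphorylase, measured 19.3, 34.6 and 43.5 CPM in back and 101, 122 and 149.7 CPM in tail libraries (log2 -1.86, SE 0.11, adjusted p = 1.72e-12), while its relative Pygb was slightly higher in back (log2 0.31, adjusted p = 0.0262), a call that was lost on leaving out any of 8 single libraries (back Slc1a3 replicate 2, both K14 and each tail library except Slc1a3 replicate 2, log2 0.22 to 0.33). The NADPH-yielding enzymes G6pdx, Pgd and the transketolase Tkt were at back medians of 48.5, 58.6 and 262 CPM and tail medians of 104, 127 and 557 CPM, with log2 differences of -0.996, -1.04 and -0.94, and all 3 passed. The count of 4 higher was 2 without back K14 replicate 1, tail Aspm replicate 2 or tail Dlx1 replicate 2. Ugp2, which makes UDP-glucose, and Rpe, a pentose epimerase, were higher in back without overlap (log2 0.86, adjusted p = 1.55e-07 and log2 1.03, adjusted p = 6.7e-06). Gbe1, the branching enzyme, did not pass (log2 0.04, adjusted p = 0.733).

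Of 26 genes of pyruvate entry and the citric acid cycle 13 were lower and 3 higher in back, but by little, with 1 gene at least 2-fold each way and a median of -0.21. Without tail Dlx1 replicate 1 the count lower was 7, and without back K14 replicate 1, tail Slc1a3 replicate 2, tail Aspm replicate 2 or tail Dlx1 replicate 2 the count higher was 1. Pdk1, the kinase that shuts pyruvate dehydrogenase, measured 65.9, 103 and 137 CPM in back and 170.2, 212 and 237 CPM in tail libraries (log2 -1.01, SE 0.12, adjusted p = 1.36e-07). Its substrate's subunit Pdha1 measured 167, 182 and 199.9 CPM in back and 110.2, 131 and 135 CPM in tail libraries (log2 0.52, SE 0.072, adjusted p = 2.26e-06). Idh3a, of the cycle itself, was lower (log2 -0.71, adjusted p = 1.22e-07), and Cs did not pass except without back Slc1a3 replicate 4 (log2 0.25).

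**Figure D2:**
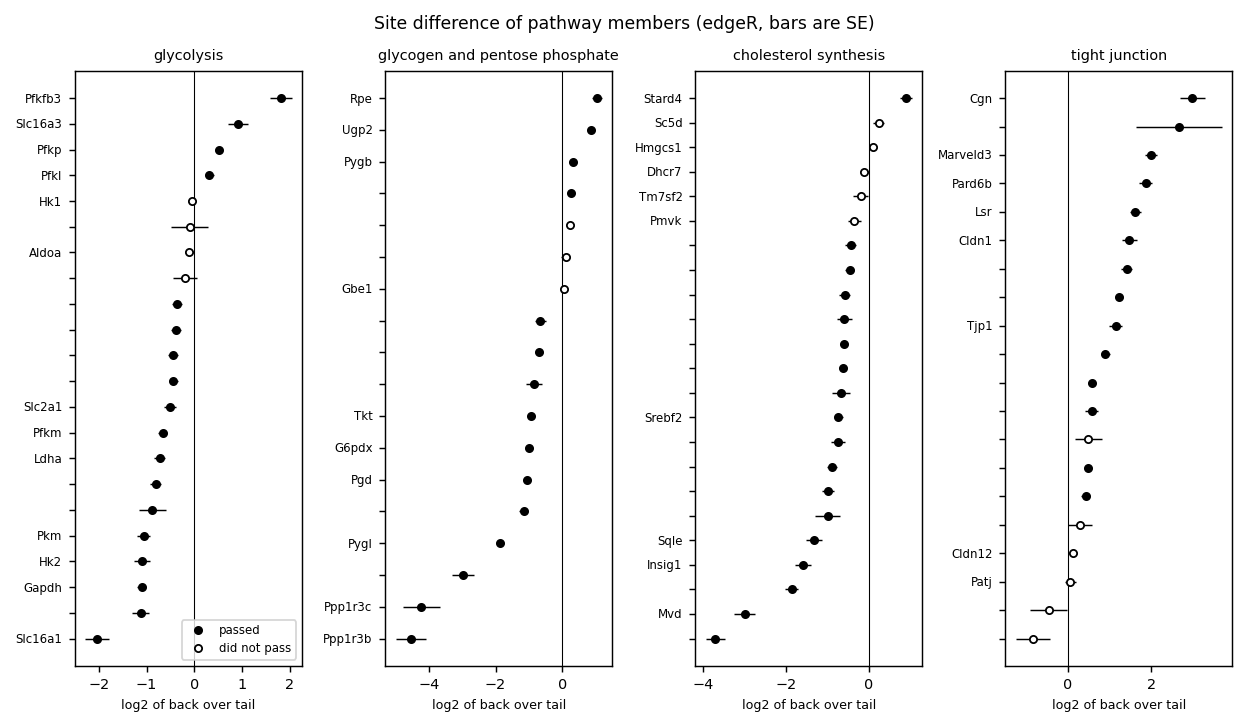
Log2 of back over tail in total IFE for the members of 4 lists with a mean of at least 1 CPM at either site, with bars of 1 SE from edgeR and filled points for genes that passed. Members described in the text are named on the axis. Most glycolysis, glycogen and cholesterol genes lie left of 0 and every passing tight junction gene lies right of it.

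Fatty acid oxidation went against this, with 10 of 24 genes higher and 5 lower in back. Ppara, the nuclear receptor that drives this pathway in liver, measured 14.6, 28.8 and 52.2 CPM in back and 3.10, 5.97 and 8.46 CPM in tail libraries (log2 2.31, SE 0.27, adjusted p = 2.39e-07). Acadl, a long-chain acyl-CoA dehydrogenase, measured 68.8, 85.6 and 114 CPM in back and 21.7, 26.4 and 28.3 CPM in tail libraries (log2 1.80, SE 0.12, adjusted p = 6.68e-12). Neither overlapped between sites. Ppard, the related receptor prominent in keratinocytes, was lower in back at 21.6, 23.2 and 28.2 CPM in back and 33.2, 39.9 and 45.4 CPM in tail libraries (log2 -0.72, SE 0.096, adjusted p = 1.28e-06). Cpt1a, the gate for entry into mitochondria, had medians of 122 CPM in back and 120 CPM in tail and did not pass (log2 -0.01, adjusted p = 0.956). The counts depended on the line: within the Slc1a3 line 5 members were higher and 6 lower in back, and within the Aspm line 7 and 1.

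In fatty acid synthesis and activation 5 of 21 genes were higher and 10 lower in back. Scd2, one of the desaturases that put a double bond into stearate, measured 15.3, 19.3 and 47.7 CPM in back and 360.3, 400 and 476 CPM in tail libraries (log2 -4.19, SE 0.24, adjusted p = 1.72e-12). Scd1 measured 164, 177 and 376 CPM in back and 227, 456 and 577 CPM in tail libraries (log2 -0.89, SE 0.16, adjusted p = 7.56e-05). Per kilobase of exon Scd2 made 5.86 to 10.2% of the summed Scd1 to Scd3 level in back libraries and 38.2 to 61.0% in tail libraries, and the sum itself was 36.7 to 85.9 CPM per kilobase in back and 119 to 192.6 in tail (these genes resemble each other, and reads may be shared). Fabp5, the epidermal fatty acid binding protein, measured 4.60, 16.3 and 29.00 CPM in back and 38.01, 121 and 152 CPM in tail libraries (log2 -2.50, SE 0.19, adjusted p = 1.94e-10). Me1, which supplies NADPH, and Acsl3, an acyl-CoA synthetase, were higher in back (log2 1.36, adjusted p = 8.58e-08 and log2 1.21, adjusted p = 2.35e-08), and Acly did not pass. The sebaceous markers given above were lower in back beside these genes. Their part was not tested.

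Cholesterol synthesis was the list with the largest share of members lower in back, 17 of 24 (70.8%), with 1 higher and a median of -0.64. The lower genes included enzymes of both the mevalonate and the sterol steps. Mvd, which makes isopentenyl pyrophosphate, measured 1.28, 2.05 and 3.89 CPM in back and 12.2, 18.7 and 24.98 CPM in tail libraries (log2 -2.99, SE 0.26, adjusted p = 1.34e-09). Sqle, squalene epoxidase, measured 13.04, 19.5 and 36.03 CPM in back and 44.9, 53.1 and 56.5 CPM in tail libraries (log2 -1.31, SE 0.19, adjusted p = 3.27e-06). Neither of them overlapped between sites. Of the regulators, Srebf2, the transcription factor of the pathway, and Insig1, its brake, were lower too (log2 -0.73, adjusted p = 1e-05 and log2 -1.59, adjusted p = 2.07e-07).

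Hmgcs1, the first committed enzyme, went its own way with 237, 374 and 417 CPM in back and 282, 317 and 347 CPM in tail libraries and did not pass (log2 0.11, adjusted p = 0.281). Stard4, a carrier of cholesterol between membranes, was the member higher in back (median 26.96 CPM in back and 14.8 CPM in tail, log2 0.90, adjusted p = 1.81e-05). Beside these counts stand the sebaceous markers, 8 of 9 lower in back, with no marker at 0 in all libraries of either site. Without back Slc1a3 replicate 4 the list had 1 higher and 18 lower, within the Slc1a3 line 1 and 12, and within the Aspm line 1 and 11.

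The promoters of Mvd, lower in back, and of Hmgcs1, which did not pass, are printed as examples from the cholesterol list. Genes of this pathway are textbook targets of a sterol-responsive factor, whose part here was not tested. The windows run from 250 bases before to 50 bases after the RefSeq start on the strand of the gene, Mvd at chr8:122443373-122443672 (minus strand) and Hmgcs1 at chr13:119690101-119690400 (plus strand) of GRCm38.p6. Capitals mark CCAAT, the box bound by NF-Y, and TCACNCCAC, a form of the sterol response element, each searched on both strands, where CCAAT may read ATTGG. No 2 of the marked motifs overlap.
Mvd: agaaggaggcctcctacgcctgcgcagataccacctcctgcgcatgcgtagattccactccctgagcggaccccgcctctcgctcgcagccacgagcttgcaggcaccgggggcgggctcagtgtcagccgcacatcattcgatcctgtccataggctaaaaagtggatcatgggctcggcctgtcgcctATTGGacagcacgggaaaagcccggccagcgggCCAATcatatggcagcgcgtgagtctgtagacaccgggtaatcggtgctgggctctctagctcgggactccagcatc
Hmgcs1: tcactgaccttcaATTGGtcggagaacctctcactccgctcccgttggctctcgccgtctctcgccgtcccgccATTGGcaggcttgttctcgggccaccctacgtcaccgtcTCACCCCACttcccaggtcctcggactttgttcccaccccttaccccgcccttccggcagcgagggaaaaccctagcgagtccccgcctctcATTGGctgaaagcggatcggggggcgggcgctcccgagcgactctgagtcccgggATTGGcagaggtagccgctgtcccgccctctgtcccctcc
A CCAAT box stood in the promoters of all 16 cholesterol synthesis genes that RefSeq's table covers, of 24 in the list, and in 16 of their 19 windows, against 37.4% of 32851 promoters of this length. The sterol element stood in 1 of them, Hmgcs1, against 1.24% of all promoters. The Mvd window holds 2 CCAAT boxes and the Hmgcs1 window 4. A match in these letters is a description of the window, not evidence of a bound site. Since all 16 covered genes hold CCAAT, it could not set the lower genes apart, and nothing follows about its role. Of the 16, Hmgcs1, Sc5d, Dhcr7, Pmvk and Tm7sf2 did not pass (Pmvk passed without back Slc1a3 replicate 4 or tail Aspm replicate 1, log2 -0.53 and -0.43).

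Ceramide and barrier lipid genes were rearranged more than shifted, with 10 of 28 higher and 8 lower in back. Among the ceramide synthases, each of which attaches acyl chains of its own preferred length, Cers4 and Cers6 differed strongly in opposite directions. Per kilobase of exon Cers5 had the largest median share of the synthases at both sites, 31.4% in back and 52.1% in tail. Cers4 (ENSMUSG00000008206, chromosome 8, 4493026 to 4531680) measured 1.18, 1.97 and 7.15 CPM in back and 68.9, 133 and 179 CPM in tail libraries (log2 -5.89, SE 0.27, adjusted p = 2.79e-14). Cers6 (ENSMUSG00000027035, chromosome 2, 68861441 to 69114282) measured 60.9, 124 and 181 CPM in back and 11.6, 21.2 and 28.4 CPM in tail libraries (log2 2.58, SE 0.19, adjusted p = 5.41e-11). Cers5 was lower in back (log2 -0.96, adjusted p = 7.07e-09), Cers3, which makes the very long ceramides of the barrier, was higher (log2 0.77, adjusted p = 9.25e-07), and Cers2 did not pass (log2 -0.08, adjusted p = 0.643). Per kilobase of exon Cers4 made 0.199 to 1.76% of the summed synthase level in back and 11.1 to 23.3% in tail, and Cers6 20.7 to 39.1% in back and 2.05 to 6.92% in tail, while the sum overlapped at 33.2 to 52.3 CPM per kilobase in back and 46.2 to 63.8 in tail.

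The steps before and after the synthases differed as well. Degs1, the desaturase that finishes ceramide, measured 64.1, 75.4 and 109 CPM in back and 265, 369 and 424 CPM in tail libraries (log2 -2.25, SE 0.085, adjusted p = 4.36e-16). Serine palmitoyltransferase, which starts the pathway, was higher in back in its subunit Sptlc3 (log2 0.81, adjusted p = 6.13e-07) and lower in Sptlc2 (log2 -0.58, adjusted p = 0.00609). Abca12, the lipid transporter of lamellar granules, measured 22.2, 46.00 and 60.9 CPM in back and 4.96, 11.9 and 14.01 CPM in tail libraries (log2 1.95, SE 0.23, adjusted p = 1.95e-07). Also higher in back, among the 10 members that were, stood the lipoxygenase Aloxe3 (log2 1.261, adjusted p = 6.46e-05), Nipal4 (log2 1.05, adjusted p = 2.35e-05) and the ceramidase Acer1 (log2 1.05, adjusted p = 4.25e-07). Kdsr did not pass.

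In eicosanoid metabolism, the prostaglandin and leukotriene pathways, 10 of 23 genes were higher and 6 lower in back. Hpgds, the haematopoietic prostaglandin D synthase, measured 35.4, 56.9 and 86.6 CPM in back and 0.849, 1.03 and 2.24 CPM in tail libraries (log2 5.57, SE 0.32, adjusted p = 9.14e-13). Pla2g2f, a secreted phospholipase of the epidermis, measured 92.04, 137 and 196 CPM in back and 27.1, 32.2 and 38.4 CPM in tail libraries (log2 2.12, SE 0.18, adjusted p = 5.99e-10). Neither gene overlapped between sites. Hpgds is best known from immune cells, and beside it 8 of 10 Langerhans cell markers were higher in back. Their part was not tested. Lta4h and Ptges3 did not pass.

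Amino acid and polyamine genes were lower in 14 and higher in 7 of 29. The lower ones included Ass1, argininosuccinate synthase, at 9.19, 31.4 and 41.6 CPM in back and 87.3, 129 and 141 CPM in tail libraries (log2 -2.04, SE 0.17, adjusted p = 3.99e-10). Cth, which makes cysteine, measured 0, 5.64 and 10.7 CPM in back and 15.9, 19.8 and 24.6 CPM in tail libraries (log2 -1.85, SE 0.31, adjusted p = 2.89e-05). The higher ones included ornithine aminotransferase, Oat, at 293, 391 and 556 CPM in back and 154, 177 and 199 CPM in tail libraries (log2 1.22, SE 0.10, adjusted p = 1.11e-09). Glutamine synthetase, Glul, had wide and overlapping levels (456 to 1150 CPM in back and 635 to 1205 CPM in tail) and did not pass (log2 -0.37, adjusted p = 0.0652), though it passed with library totals or DESeq2 size factors, and on leaving out back Slc1a3 replicate 1, back Aspm replicate 4, back K14 replicate 1 or tail Dlx1 replicate 2 (log2 -0.48 to -0.43).

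Among the enzymes that modify foreign and reactive compounds, 13 of 39 cytochrome P450 genes were higher and 13 lower in back, 3 of 23 glutathione S-transferases were higher and 9 lower, and 6 of 29 aldehyde and alcohol dehydrogenases and aldo-keto reductases were higher and 14 lower. Cyp3a13 and Cyp2b10, of drug-metabolizing subfamilies, were higher in back at 34.1 to 87.5 and 37.5 to 72.00 CPM, against 4.02 to 12.5 and 12.9 to 18.4 CPM in tail (log2 2.82, adjusted p = 1.32e-09 and log2 1.53, adjusted p = 1.83e-09). Cyp11b1, known for the last step of corticosterone synthesis, was at 0 to 0.513 CPM in back and 3.99 to 6.04 CPM in tail (log2 -8.08, adjusted p = 1.11e-09). The retinaldehyde dehydrogenase Aldh1a1 and its close copy Aldh1a7 were higher in back, Aldh1a1 at 4.72, 14.9 and 24.1 CPM in back and 0.472, 1.10 and 2.08 CPM in tail libraries (log2 3.73, SE 0.36, adjusted p = 1.36e-08), although reads of these 2 genes may be shared. Adh1, the alcohol dehydrogenase that oxidizes retinol, went the other way at 8.04, 10.2 and 12.2 CPM in back and 78.2, 128 and 158 CPM in tail libraries (log2 -3.64, SE 0.14, adjusted p = 4.63e-16). Gsta4, which clears lipid aldehydes, measured 1.06, 3.72 and 7.92 CPM in back and 18.9, 24.4 and 42.05 CPM in tail libraries (log2 -2.86, SE 0.32, adjusted p = 1.19e-07).

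Junctions differed by class. Tight junctions, which seal the granular layer, were the list with the largest share higher in back, 16 of 27 (59.3%) with 0 lower by edgeR, and a median of 0.57, which was 0.99 without tail Aspm replicate 2 (1 lower at an unadjusted p under 0.05, and 0 lower by DESeq2 and by limma-voom). Claudin-1, Cldn1, the main barrier claudin of the epidermis, measured 220.1, 462 and 652 CPM in back and 127, 162 and 238 CPM in tail libraries (log2 1.47, SE 0.18, adjusted p = 2.8e-07), with overlapping ranges. The scaffold Tjp1 measured 62.8, 88.6 and 123 CPM in back and 20.4, 40.95 and 59.6 CPM in tail libraries (log2 1.14, adjusted p = 1.21e-06). Tjp1 separated the sites without overlap, as did the next 4 genes. Marveld3, a tetraspan relative of occludin, measured 31.7, 39.7 and 52.1 CPM in back and 7.59, 10.2 and 11.8 CPM in tail libraries (log2 1.996, SE 0.14, adjusted p = 4.48e-11). Cgn, cingulin, measured 3.41, 5.52 and 11.1 CPM in back and 0.207, 0.888 and 1.63 CPM in tail libraries (log2 2.98, SE 0.30, adjusted p = 2.06e-08). Lsr, angulin-1 of tricellular contacts, measured 22.3, 38.1 and 48.6 CPM in back and 9.76, 12.2 and 17.8 CPM in tail libraries (log2 1.61, SE 0.14, adjusted p = 1.1e-09). The polarity protein Pard6b measured 33.7, 38.5 and 51.7 CPM in back and 9.11, 10.7 and 16.3 CPM in tail libraries (log2 1.86, SE 0.15, adjusted p = 2.24e-10). Patj and Cldn12, at medians of 41.1 and 31.4 CPM in back and 43.3 and 28.7 CPM in tail, did not pass. The count of 16 higher and 0 lower was the same without back Slc1a3 replicate 4. Within the Slc1a3 line it was 11 higher and 1 lower, and within the Aspm line 13 and 0.

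Desmosomes, the spot welds of keratinocytes, were split, with 5 of 18 genes higher and 6 lower in back (27.8% and 33.3%, against 23% and 22.5% over all genes). Their core, Dsp and Dsc3, stood at medians of 4845 and 1514 CPM in back and 5190 and 1534 CPM in tail and did not pass (log2 -0.09, adjusted p = 0.673 and log2 -0.09, adjusted p = 0.568). Around it the desmogleins Dsg2 and Dsg1a were higher, Dsg2 at 169, 187 and 211 CPM in back and 42.4, 83.6 and 102 CPM in tail libraries (log2 1.32, SE 0.11, adjusted p = 5.14e-10) and Dsg1a at 589.8, 949 and 1232 CPM in back and 293, 412 and 591 CPM in tail libraries (log2 1.12, SE 0.14, adjusted p = 4e-07). The desmocollins Dsc1 and Dsc2 were lower, Dsc1 at 3.93, 6.65 and 11.9 CPM in back and 24.99, 45.98 and 57.9 CPM in tail libraries (log2 -2.7, SE 0.26, adjusted p = 6.52e-09). Periplakin, Ppl, and envoplakin, Evpl, which tie desmosomes to the cornified envelope, were higher in back, Ppl at 822, 1079 and 1457 CPM in back and 249, 494 and 555 CPM in tail libraries (log2 1.21, SE 0.15, adjusted p = 3.12e-07) and Evpl with log2 1.01, adjusted p = 2.81e-05. Plakoglobin, Jup, and plakophilin 1, Pkp1, were lower by less than 2-fold (log2 -0.59, adjusted p = 7.82e-05 and log2 -0.56, adjusted p = 0.000107). Dsg1a has a close copy, Dsg1b, that did not pass.

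In adherens junctions 8 of 18 genes were higher and 5 lower, a count of lower genes that was 2 without tail Slc1a3 replicate 2 and 3 without either back K14 library or without tail Dlx1 replicate 1. Cdh4, R-cadherin, measured 70.4, 90.7 and 133 CPM in back and 7.53, 10.3 and 17.5 CPM in tail libraries (log2 3.19, SE 0.17, adjusted p = 2.51e-13). Cdh3, P-cadherin of basal cells, measured 94.9, 134 and 173 CPM in back and 197, 209.7 and 218 CPM in tail libraries (log2 -0.65, SE 0.13, adjusted p = 0.00022). Neither overlapped. Nectin2, an immunoglobulin-like adhesion molecule, was higher (log2 1.16, adjusted p = 3.15e-10), while afadin, Afdn, which links nectins to actin, was lower at 157, 281 and 337 CPM in back and 454, 587 and 674 CPM in tail libraries (log2 -1.28, SE 0.097, adjusted p = 1.23e-10). Of 58 protocadherins and other cadherins 16 were higher and 7 lower, although 16 of the Slc1a3 line and 4 of the Aspm line were higher when taken alone, and Celsr1 and Fat2 did not pass.

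Gap junctions were exchanged among the beta connexins. Of 13 connexins and pannexins 2 were higher and 5 lower in back. Gjb2, a connexin whose human gene is mutated in deafness with skin disease, measured 0, 0.956 and 2.04 CPM in back and 23.4, 34.5 and 57.8 CPM in tail libraries (log2 -5.82, SE 0.32, adjusted p = 4.2e-13). Its relative Gjb6 measured 0, 3.83 and 10.3 CPM in back and 33.8, 51.3 and 63.1 CPM in tail libraries (log2 -3.44, SE 0.38, adjusted p = 2.13e-07). Gjb5 measured 76.1, 112 and 134 CPM in back and 29.7, 43.6 and 50.5 CPM in tail libraries (log2 1.34, SE 0.098, adjusted p = 6.17e-11). No back library overlapped a tail library in any of the 3. Gja1, the common alpha connexin, did not pass, at 306, 530.2 and 608 CPM in back and 428, 476 and 516 CPM in tail libraries (log2 0.12, adjusted p = 0.367). Per kilobase of exon Gjb2 and Gjb6 made at most 0.750% and 3.54% of the beta connexin sum in back, against 6.76 to 13.7% and 8.81 to 17.1% in tail, and Gjb5 40.8 to 50.5% in back against 16.1 to 17.2% in tail, with the sum overlapping at 97.7 to 190.8 CPM per kilobase in back and 105 to 176 in tail. Gja3, best known from the lens, was at 0 to 0.299 CPM in back and 8.79 to 15.8 CPM in tail.

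**Figure D3:**
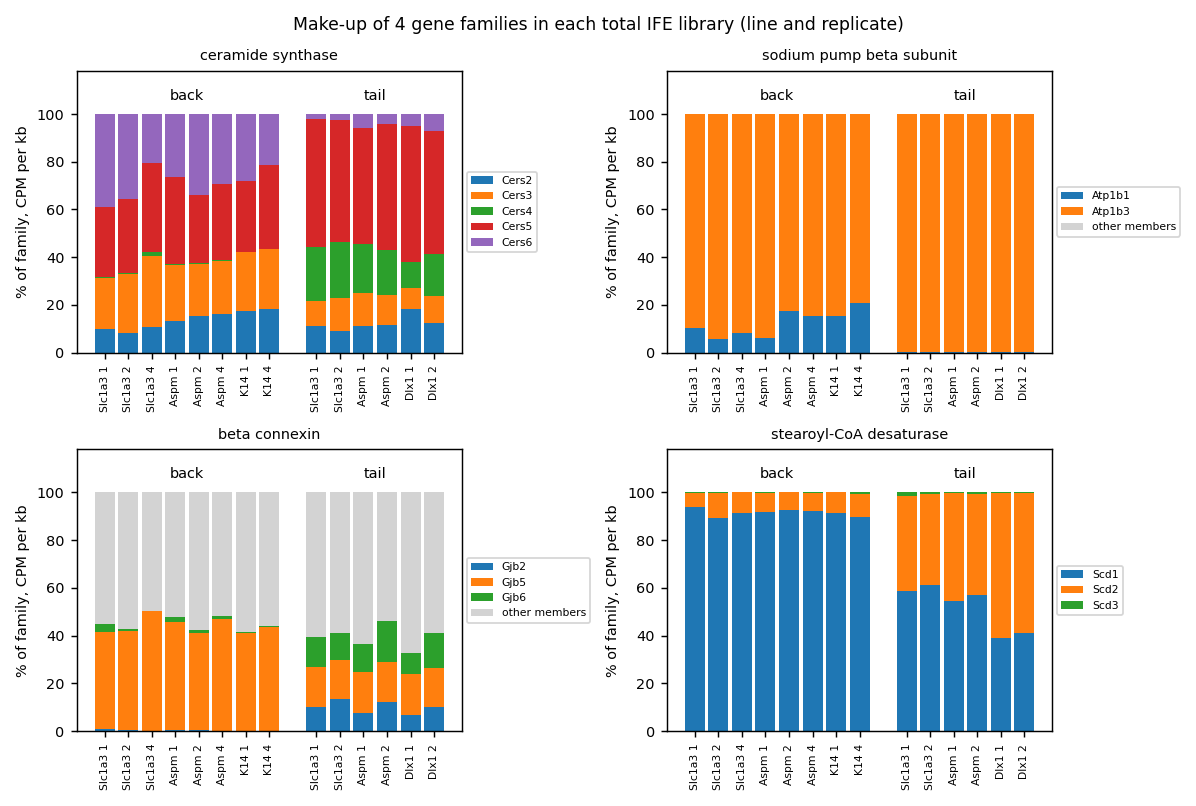
Share of each member in 4 gene families, in percent of the family's summed CPM per kilobase of exon, as stacked bars for each of the 8 back and 6 tail total IFE libraries, named by line and replicate, with members not described in the text pooled in grey. Cers6, Gjb5 and Atp1b1 take larger shares in every back library, and Cers4, Gjb2, Gjb6 and Scd2 in every tail library.

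Water and salt handling differed at high levels. Aqp3 (ENSMUSG00000028435, chromosome 4, 41092722 to 41098183), the water and glycerol channel of basal keratinocytes, measured 52.7, 96.3 and 124 CPM in back and 1314, 1468 and 1760 CPM in tail libraries (log2 -4.14, SE 0.10, adjusted p = 5.52e-19), and it had the smallest adjusted p among the genes named here. Aqp9 was lower too (log2 -3.28, adjusted p = 9.14e-06), and of the 4 aquaporins tested the other 2 did not pass. The sodium pump differed in its beta chains. The beta chain Atp1b1 (ENSMUSG00000026576, chromosome 1, 164437109 to 164458355) measured 55.5, 138 and 227 CPM in back and 1.258, 2.36 and 3.38 CPM in tail libraries (log2 5.74, SE 0.37, adjusted p = 4.02e-11). Atp1b3, the beta chain in the majority at both sites, measured 468, 711 and 892 CPM in back and 734, 877 and 948 CPM in tail libraries (log2 -0.29, SE 0.11, adjusted p = 0.027), a call lost on leaving out any of 8 single libraries (back Aspm replicate 4, both K14 and each tail library except Slc1a3 replicate 2, log2 -0.31 to -0.23). Per kilobase of exon Atp1b1 made 5.82 to 20.9% of the beta chains in back and 0.103 to 0.278% in tail. Of 22 ion-pumping ATPases 4 were higher (2 without tail Dlx1 replicate 1) and 7 lower in back, and among the calcium pumps Atp2b1, of the plasma membrane, was higher and Atp2a2, of the endoplasmic reticulum, lower (log2 1.04, adjusted p = 3.2e-06 and log2 -0.87, adjusted p = 4.54e-08).

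Chloride and anion channels leaned to back, with 15 of 33 higher and 8 lower and a median of 0.71, which was 0.33 without back Aspm replicate 1. Clca3a2, of a family of secreted or membrane-bound regulators of chloride conductance, measured 1148, 1689 and 2410 CPM in back and 20.1, 28.7 and 50.9 CPM in tail libraries (log2 5.81, SE 0.24, adjusted p = 1.37e-15). Its close copy Clca3a1 measured 25.4, 43.3 and 75.2 CPM in back and 0.0393, 0.473 and 1.04 CPM in tail libraries. Ano1 and Ano6 did not pass. The anion channel of the transmitter-gated type Gabrp, a GABA receptor subunit, measured 15.2, 39.4 and 51.2 CPM in back and 0.0352, 0.343 and 0.826 CPM in tail libraries (log2 6.43, SE 0.38, adjusted p = 1.49e-12), while Grik4, a glutamate receptor subunit, was lower, at 0 to 0.720 CPM in back and 9.43 to 16.3 CPM in tail.

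Potassium channels were split, 11 of 44 higher and 11 lower. These shares, 25% each way, were near the 23% higher and 22.5% lower over all genes. Kcnj16, an inward rectifier, measured 32.05, 57.9 and 88.2 CPM in back and 0.826, 2.000 and 3.90 CPM in tail libraries (log2 4.88, SE 0.31, adjusted p = 6.37e-12). Kcnip3, a calcium-binding partner of voltage-gated channels, measured 7.33, 10.9 and 12.6 CPM in back and 0, 0.0350 and 0.0703 CPM in tail libraries (log2 8.23, SE 0.41, adjusted p = 8.07e-14). Kcnh1, a voltage-gated channel of the ether-a-go-go family, measured 0.510, 1.57 and 6.51 CPM in back and 20.1, 61.99 and 102 CPM in tail libraries (log2 -5.04, SE 0.37, adjusted p = 1.69e-10), and Kcnk1, a leak channel, was at 0 to 0.765 CPM in back and 2.41 to 9.59 CPM in tail. Of 36 TRP, Piezo and other mechanosensory channels 10 were higher and 8 lower (27.8% and 22.2%, near the shares over all genes). The epithelial calcium channel Trpv6 was higher in back at 32.97, 40.4 and 48.5 CPM in back and 17.2, 17.5 and 19.2 CPM in tail libraries (log2 1.16, SE 0.095, adjusted p = 5.01e-10), and Trpv4, a warmth- and osmosensitive channel of keratinocytes, lower at 2.97, 6.51 and 12.7 CPM in back and 29.7, 38.5 and 40.6 CPM in tail libraries (log2 -2.54, SE 0.20, adjusted p = 3.05e-10). P2rx7, gated by ATP, measured 2.46, 5.97 and 7.92 CPM in back and 26.98, 28.1 and 34.1 CPM in tail libraries (log2 -2.49, SE 0.21, adjusted p = 7.54e-10). Among 32 sodium and calcium channels 9 were higher and 8 lower (28.1% and 25%, also near the shares over all genes). Orai2, a store-operated calcium channel, measured 0, 1.85 and 3.09 CPM in back and 25.8, 34.1 and 38.7 CPM in tail libraries (log2 -4.16, SE 0.32, adjusted p = 1.52e-10), whereas its sensor Stim1 did not pass (log2 0.04, adjusted p = 0.755).

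Of 237 solute carriers 50 were higher and 90 lower in back, with a median of -0.22. Slco3a1, an organic anion and prostaglandin transporter, measured 253, 314 and 341 CPM in back and 19.6, 31.4 and 41.4 CPM in tail libraries (log2 3.29, SE 0.11, adjusted p = 9.63e-17). Slc4a8, a sodium-driven bicarbonate exchanger, measured 51.7, 132 and 159 CPM in back and 2.92, 5.73 and 13.5 CPM in tail libraries (log2 4.36, SE 0.26, adjusted p = 1.79e-12). In the other direction Slc6a17, a neutral amino acid transporter known from neurons, measured 0, 0.606 and 1.72 CPM in back and 27.6, 36.4 and 43.7 CPM in tail libraries (log2 -5.67, SE 0.42, adjusted p = 8.89e-11), and Slc7a8 (LAT2), also for neutral amino acids, 0, 0.266 and 1.65 CPM in back and 11.1, 15.1 and 28.01 CPM in tail libraries (log2 -5.63, SE 0.54, adjusted p = 8.74e-09). Slc38a2, an abundant amino acid transporter, did not pass. Among 30 ABC transporters 12 were higher and 7 lower, and the lower ones included the efflux pumps Abcc3 (median 7.97 CPM in back and 109 CPM in tail, log2 -3.31, adjusted p = 1.67e-09) and Abcg2 (median 30.5 CPM in back and 77.2 CPM in tail, log2 -1.27, adjusted p = 8.99e-10).

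**Figure D4:**
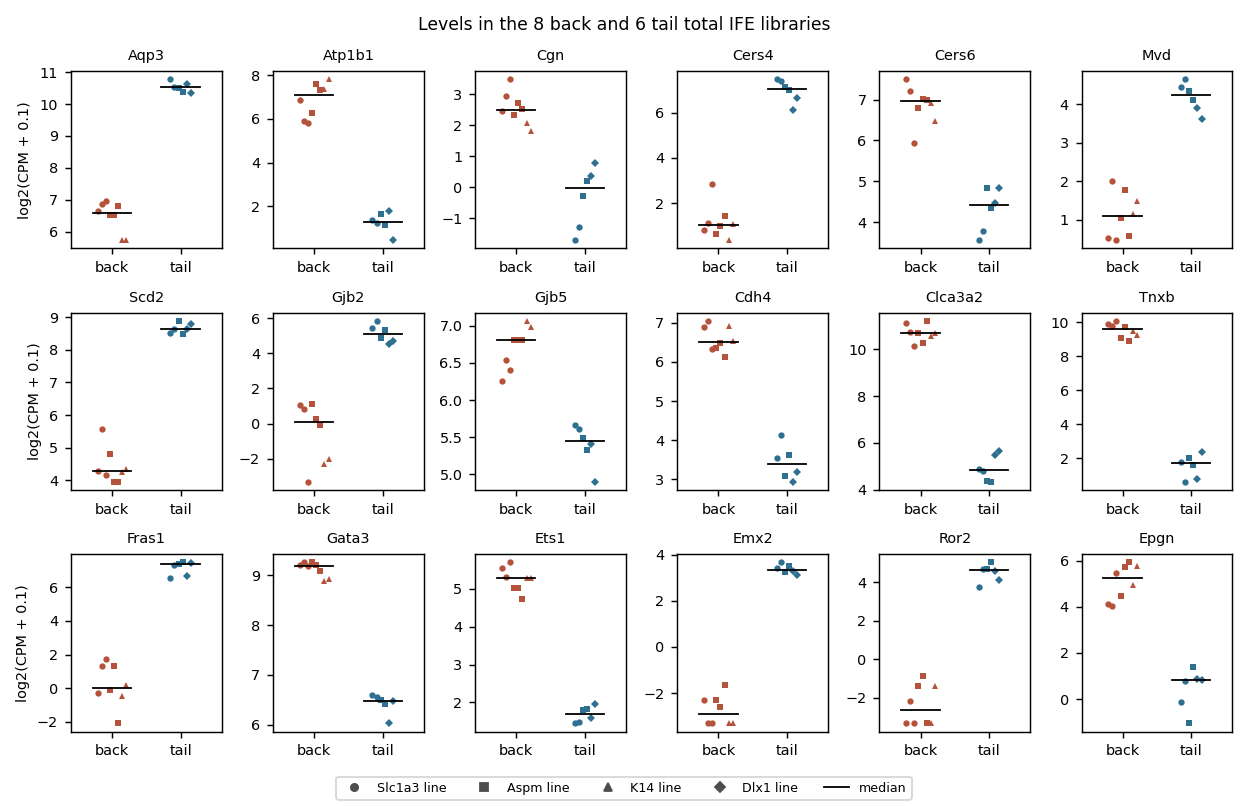
Level of 18 genes in each total IFE library as log2(CPM + 0.1), with back libraries on the left and tail libraries on the right of each panel, the line shown by the marker and the median by a bar. In all 18 genes the 8 back libraries lie on one side of the 6 tail libraries, which was a condition for naming them.

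Secreted growth factors differed in single members rather than as families. Of 16 genes of the EGF family and its receptors 5 were higher and 2 lower in back. Epgn, epigen, measured 16.4, 37.3 and 60.98 CPM in back and 0.382, 1.65 and 2.54 CPM in tail libraries (log2 4.64, SE 0.48, adjusted p = 8.57e-08). The receptor Erbb3 measured 162, 229 and 365 CPM in back and 76.2, 118 and 131 CPM in tail libraries (log2 1.08, SE 0.19, adjusted p = 6.83e-05). Lrig1, which dampens these receptors and marks upper follicle stem cells, was higher as well (log2 1.14, adjusted p = 0.000111), whereas Egfr, at medians of 184 CPM in back and 179 CPM in tail, did not pass (log2 0.01, adjusted p = 0.954). Of 41 FGF, PDGF, VEGF and angiopoietin-type ligands 11 were higher and 8 lower (26.8% and 19.5%, near the 23% and 22.5% over all genes). Gdnf, a neurotrophic factor, measured 18.4, 24.8 and 27.1 CPM in back and 4.71, 6.21 and 7.50 CPM in tail libraries (log2 2.04, SE 0.20, adjusted p = 1.13e-08). Kitl, the Kit ligand that melanocytes depend on, measured 0, 4.36 and 13.2 CPM in back and 16.8, 20.7 and 27.1 CPM in tail libraries (log2 -2.21, SE 0.36, adjusted p = 2.03e-05). Of 9 melanocyte markers tested 7 were lower and 1 higher in back, with summed levels of 12.5 to 28.9 CPM in back and 17.5 to 27.4 CPM in tail. Their part was not tested.

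Of 21 chemokines 7 were higher and 4 lower in back (2 lower without tail Aspm replicate 2), and of 31 interleukins, TNF family members and other cytokines 10 were higher and 6 lower. Ccl27a, a keratinocyte chemokine for skin-homing T cells, measured 59.8, 123 and 159 CPM in back and 7.71, 9.58 and 14.4 CPM in tail libraries (log2 3.55, SE 0.20, adjusted p = 9.01e-13). Cxcl14, a constitutive epidermal chemokine, measured 339, 589 and 995 CPM in back and 104, 157 and 192 CPM in tail libraries (log2 2.07, SE 0.20, adjusted p = 7.97e-09). Il1rn, the antagonist of the interleukin-1 receptor, measured 44.4, 92.6 and 164 CPM in back and 12.8, 13.9 and 18.5 CPM in tail libraries (log2 2.83, SE 0.14, adjusted p = 3.04e-14). In each of them every back library exceeded every tail library. Of 7 epidermal T cell markers tested 4 were higher in back and 0 lower by edgeR (0 lower also at an unadjusted p under 0.05 and by DESeq2), with summed levels that overlapped at 23.5 to 87.9 CPM in back and 15.2 to 135 CPM in tail, and the part of immune cells was not tested.

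Among guidance cues, 6 of 33 semaphorins, ephrins, netrins and slits were higher and 6 lower. These shares, 18.2% each way, lay under the 23% higher and 22.5% lower over all genes. Sema3c, a secreted guidance cue of axons, measured 363, 497 and 574 CPM in back and 90.6, 103 and 134 CPM in tail libraries (log2 2.20, adjusted p = 1.82e-12). Its relative Sema3d measured 106, 182 and 227 CPM in back and 28.2, 42.3 and 79.5 CPM in tail libraries (log2 1.95, adjusted p = 5.3e-08). Among 26 guidance receptors 8 were higher and 11 lower. The Slit receptors parted, Robo1 at 65.7, 86.2 and 131 CPM in back and 8.40, 18.03 and 28.4 CPM in tail libraries (log2 2.26, SE 0.20, adjusted p = 1.62e-09) and Robo2 at 7.90, 11.6 and 14.2 CPM in back and 24.8, 35.04 and 38.9 CPM in tail libraries (log2 -1.58, SE 0.16, adjusted p = 1.37e-08). Nrp2, a semaphorin co-receptor, was at 0 to 1.48 CPM in back and 5.16 to 9.004 CPM in tail, and Plxnb1 and Plxnb2 did not pass. Beside these genes 3 of 8 nerve and glia markers were higher and 1 lower in back, and their part was not tested.

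Of the matrix genes that passed, more were lower than higher in back. Of 55 matrix proteins other than collagens 12 were higher and 26 lower in back, and of 33 collagens 7 were higher and 10 lower. The collagen count depended on the line: within the Slc1a3 line 9 were higher and 5 lower (median 0.55), and within the Aspm line 5 and 6 (median -0.69). Tnxb (ENSMUSG00000033327, chromosome 17, 34670535 to 34719815), tenascin X, measured 469, 776 and 1091 CPM in back and 1.42, 3.17 and 5.06 CPM in tail libraries (log2 7.94, SE 0.29, adjusted p = 2.66e-16). Fras1 (ENSMUSG00000034687, chromosome 5, 96373955 to 96784728), a component of the Fraser complex that anchors epidermis to dermis, measured 0.131, 0.911 and 3.19 CPM in back and 94.05, 168 and 182 CPM in tail libraries (log2 -7.04, SE 0.46, adjusted p = 1.5e-10), whereas its partner Frem2 did not pass (log2 -0.35, adjusted p = 0.122), except without tail Slc1a3 replicate 1 (log2 -0.48). Fibronectin, Fn1, measured 19.9, 30.9 and 43.98 CPM in back and 1.39, 1.53 and 4.02 CPM in tail libraries (log2 4.01, SE 0.32, adjusted p = 3.72e-10). The basement membrane chain Col4a2 measured 49.9, 72.9 and 111 CPM in back and 8.38, 11.9 and 15.5 CPM in tail libraries (log2 2.65, SE 0.21, adjusted p = 1.97e-10). The transmembrane collagen Col23a1 measured 63.01, 116 and 242 CPM in back and 11.2, 14.2 and 18.2 CPM in tail libraries (log2 3.13, SE 0.16, adjusted p = 1.07e-13). Col17a1, the hemidesmosome collagen of basal cells, was at 6136 to 8437 CPM in back and 4908 to 7331 CPM in tail and did not pass (log2 0.16, adjusted p = 0.176).

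Among the 10 collagens lower in back were Col6a2 and Col5a2, typical of fibroblasts, at 0 to 1.38 and 0 to 2.56 CPM in back and at 8.57 to 22.98 and 17.4 to 48.4 CPM in tail. Beside them the summed fibroblast markers were 33.0 to 71.9 CPM in back and 156.8 to 246.7 CPM in tail, with none at 0 in all libraries of a site. Of 10 such markers 3 were lower, 1 was higher and 6 did not pass. Their part in the matrix counts was not tested.

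Proteases and their inhibitors leaned apart. Of 36 kallikreins and other serine proteases 16 were higher and 7 lower in back with a median of 1.09, and of 56 protease inhibitors 15 were higher and 25 lower with a median of -0.76. Klk11, a kallikrein of the upper epidermis, measured 40.5, 50.4 and 64.1 CPM in back and 12.7, 15.3 and 20.9 CPM in tail libraries (log2 1.66, SE 0.11, adjusted p = 1.37e-11). Klk5, which starts the desquamation cascade, measured 1.27, 2.50 and 3.84 CPM in back and 5.52, 9.45 and 11.4 CPM in tail libraries (log2 -1.69, SE 0.27, adjusted p = 1.34e-05). The cysteine protease inhibitor Csta1 was lower at 0, 0.730 and 1.84 CPM in back and 30.4, 52.7 and 73.2 CPM in tail libraries (log2 -5.71, SE 0.38, adjusted p = 1.58e-11), and Serpina3g was higher at 25.9, 33.4 and 52.8 CPM in back and 1.93, 2.85 and 4.01 CPM in tail libraries (log2 3.59, SE 0.32, adjusted p = 1.92e-09), both of families with near-identical copies. Wfdc17, also of such a family, was at 0 to 0.256 CPM in back and 4.26 to 79.2 CPM in tail. Among metalloproteases and their inhibitors, 12 of 40 higher and 13 lower, Adamts14 was higher (median 205 CPM in back and 51.4 CPM in tail, log2 2.04, adjusted p = 5.29e-10) and Timp2 and Mmp2, both also fibroblast products, were lower (log2 -2.31, adjusted p = 3.15e-07 and log2 -1.39, adjusted p = 6.26e-08).

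Transcription factors beyond the Hox clusters differed both ways, with 92 of 290 higher and 82 lower in back. At least 2-fold differences that passed made up 28.3% of them, against 21.1% of all genes. Of 53 other homeobox factors 17 were higher and 16 lower in back. Satb1, a chromatin organizer, measured 70.6, 100.2 and 130 CPM in back and 12.1, 17.2 and 20.3 CPM in tail libraries (log2 2.53, SE 0.13, adjusted p = 1.32e-13). Pou3f1, a POU factor of the epidermis, measured 240.4, 289 and 420.5 CPM in back and 52.2, 61.5 and 79.8 CPM in tail libraries (log2 2.25, SE 0.13, adjusted p = 1.05e-12). Emx2 and Six2 were tail genes near absence in back, Emx2 at 0, 0.0319 and 0.218 CPM in back and 8.53, 10.1 and 12.7 CPM in tail libraries (log2 -8.22, SE 0.55, adjusted p = 2.91e-11) and Six2 at 0, 0.0702 and 0.427 CPM in back and 5.13, 9.89 and 12.8 CPM in tail libraries (log2 -6.33, SE 0.51, adjusted p = 4.04e-10).

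Of 49 bHLH, GATA, GLI and RUNX factors 8 were higher and 18 lower. Gata3 (ENSMUSG00000015619, chromosome 2, 9857078 to 9890034), needed for barrier lipid synthesis and hair fate in mouse skin, measured 472, 588 and 616 CPM in back and 64.9, 89.3 and 96.5 CPM in tail libraries (log2 2.68, SE 0.088, adjusted p = 4.67e-17). The sites did not overlap. Trps1, an atypical GATA repressor, went the other way at 1.88, 3.33 and 11.8 CPM in back and 29.3, 43.02 and 46.3 CPM in tail libraries (log2 -3.49, SE 0.27, adjusted p = 2.16e-10), and so did the clock-linked repressor Bhlhe41 at 4.33, 8.20 and 15.4 CPM in back and 43.03, 50.6 and 66.8 CPM in tail libraries (log2 -2.7, SE 0.17, adjusted p = 7.56e-12). Hif1a, the factor of the hypoxia response that drives glycolysis genes, did not pass, at 184, 229.7 and 354 CPM in back and 184, 205 and 254 CPM in tail libraries (log2 0.19, adjusted p = 0.169).

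Of 35 ETS, AP-2, grainyhead, p53 and Ovo factors 15 were higher and 8 lower. Ets1 measured 26.4, 39.05 and 52.2 CPM in back and 2.62, 3.14 and 3.77 CPM in tail libraries (log2 3.60, SE 0.14, adjusted p = 5.46e-16). Etv4, an ETS factor downstream of FGF signals, measured 2.46, 6.005 and 18 CPM in back and 33.7, 34.6 and 42.5 CPM in tail libraries (log2 -2.54, SE 0.27, adjusted p = 4.12e-08). Tfap2c and Trp53 did not pass, although Trp53 did without back Slc1a3 replicate 4 (log2 0.33). Among the CREB, C/EBP, NFI, NFAT and TEAD group, 27 of 67 higher and 16 lower, Cebpg was higher at 157, 174 and 219 CPM in back and 57.6, 69.5 and 89.4 CPM in tail libraries (log2 1.34, SE 0.11, adjusted p = 8.88e-10), Tead2 lower at 0, 0.138 and 2.43 CPM in back and 5.51, 7.08 and 10.9 CPM in tail libraries (log2 -5.17, SE 0.68, adjusted p = 1.16e-06), and Nfix, at medians of 667 CPM in back and 663 CPM in tail, did not pass. Of 33 SOX and KLF factors 10 were higher and 10 lower, with Sox4 at 42.8, 48.1 and 173 CPM in back and 9.18, 10.5 and 12.5 CPM in tail libraries (log2 2.46, SE 0.21, adjusted p = 1.54e-09) and Sox7 at 11.2, 16.02 and 22.1 CPM in back and 68.9, 83.95 and 94.9 CPM in tail libraries (log2 -2.41, SE 0.12, adjusted p = 7.74e-14). Of 25 T-box and forkhead factors 8 were higher (5 without back K14 replicate 4) and 7 lower, with Foxn3 at 245, 317 and 377 CPM in back and 87.99, 106 and 121 CPM in tail libraries (log2 1.53, SE 0.096, adjusted p = 4.91e-12) and Foxp2 at 0, 0.0436 and 0.435 CPM in back and 8.88, 11.47 and 15.7 CPM in tail libraries (log2 -6.64, SE 0.53, adjusted p = 3.11e-10). Foxm1, which drives mitotic genes, was lower (median 19.7 CPM in back and 42.8 CPM in tail, log2 -1.15, adjusted p = 6.21e-06) beside the cycling markers, 6 of 10 lower in back. Of 28 nuclear receptors 7 were higher and 7 lower (25% each way, near the 23% and 22.5% over all genes). Among them the vitamin D receptor Vdr was lower at 74.1, 107 and 160.2 CPM in back and 172, 216 and 254 CPM in tail libraries (log2 -0.94, SE 0.14, adjusted p = 8.86e-06), while Rxra did not pass.

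Receptors were split as well. Of 31 receptor tyrosine kinases 12 were higher and 7 lower in back (4 lower without tail Aspm replicate 2 or tail Dlx1 replicate 2). Met, the receptor of hepatocyte growth factor, measured 72.1, 120 and 156 CPM in back and 29.1, 36.8 and 52.4 CPM in tail libraries (log2 1.603, SE 0.17, adjusted p = 4.87e-08). Ddr2, a collagen receptor, measured 2.18, 9.64 and 16.8 CPM in back and 0.170, 0.444 and 0.983 CPM in tail libraries (log2 4.23, SE 0.44, adjusted p = 3.43e-08). Ror2, a receptor for Wnt5a, measured 0, 0.0641 and 0.446 CPM in back and 13.5, 24.7 and 32.9 CPM in tail libraries (log2 -7.69, SE 0.57, adjusted p = 2.22e-10). Ntrk2, the receptor of brain-derived neurotrophic factor, measured 113, 147 and 216 CPM in back and 237, 336 and 442 CPM in tail libraries (log2 -1.13, SE 0.15, adjusted p = 1.72e-06). Ryk and Mst1r did not pass, although Mst1r did without tail Slc1a3 replicate 2 (log2 0.30). Of 91 adhesion and orphan G protein-coupled receptors 28 were higher and 27 lower, with Adgrg2 at 22.6, 32.6 and 43.4 CPM in back and 1.24, 1.81 and 2.7 CPM in tail libraries (log2 4.05, SE 0.33, adjusted p = 3.49e-10) and the serotonin receptor Htr1d at 0.383, 0.968 and 1.66 CPM in back and 7.39, 10.03 and 12.2 CPM in tail libraries (log2 -3.30, SE 0.25, adjusted p = 1.52e-10).

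The site difference could be read within the Slc1a3 and the Aspm lines, which share no library, whereas K14 and Dlx1 totals have no partner at the other site. In the Slc1a3 line 6879 genes passed (39.3%, 20.2% higher and 19.1% lower in back) and in the Aspm line 4017 (23%, 11.8% higher and 11.2% lower), counts that were 4019 without tail Slc1a3 replicate 1 and 2008 and 2352 without tail Aspm replicate 1 and 2. Of these 3097 passed in both lines in the same direction, 45.0% of the Slc1a3 line's genes and 77.1% of the Aspm line's, and 5 passed in opposite directions. For Aqp3 the log2 difference was -3.84 in the Slc1a3 line and -3.82 in the Aspm line, for Cers4 -5.83 and -6.06, for Atp1b1 5.04 and 5.78, for Gata3 2.65 and 2.75, and for Mvd -3.38 and -3.09. The difference between the lines' site effects passed for 0 genes by edgeR, with 2853 at an unadjusted p under 0.05 and a smallest adjusted p of 0.086, and for 659 genes by DESeq2 and 0 by limma-voom.

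**Figure D5:**
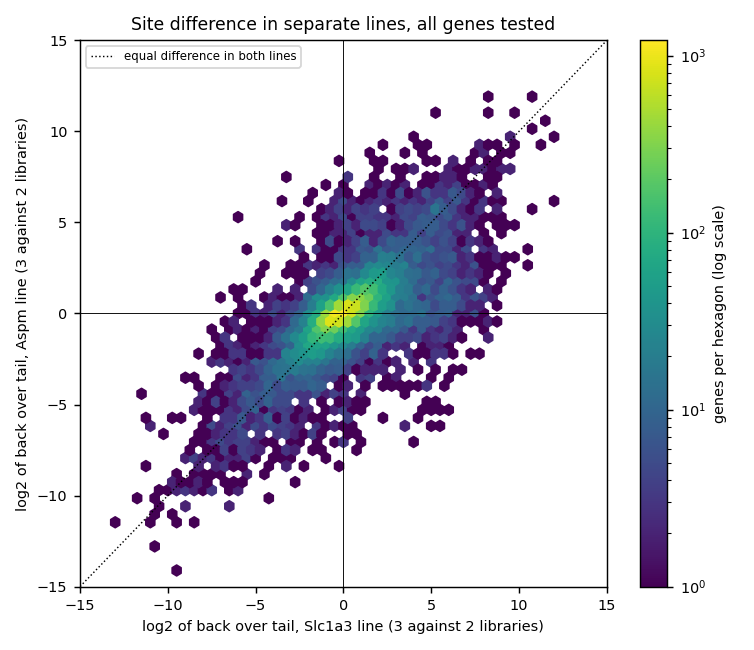
Log2 of back over tail in the Slc1a3 line (horizontal) and in the Aspm line (vertical) for all 17493 genes tested, as the number of genes per hexagon on a log colour scale. The densest hexagons lie near 0 and the arms run along the dotted line of equal difference, with 3097 genes passing in both lines the same way and 5 in opposite ways.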

How the data were processed

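The files hold 1 raw count per gene and library, as deposited by the authors, for 55536 gene identifiers that all matched GENCODE M21 (GRCm38). The submitters' processing notes name STAR 2.7.0e, GRCm38, FastQC, cutadapt, Trim Galore 0.6.0 and DESeq2 1.26.0. The counting program and its strand setting are not given in the sources used here. Per the labels, poly(A) RNA was made into libraries with a non-directional kit.

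All 28 libraries in 12 groups were fitted in edgeR 4.0.16 (filterByExpr with a minimum count of 10, TMM scaling, robust quasi-likelihood, 16 residual degrees of freedom, biological coefficient of variation 0.28), and the mean of the 3 back total groups was set against the mean of the 3 tail total groups. The model was tested on simulated counts. CPM values use the TMM-scaled library size.

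The comparison and the lists were chosen with earlier results of these data known. Genes are named by a rule: the 10 largest differences each way, the 2 largest each way per list, up to 2 non-passing members per list by level, and 3 site markers, where passing genes had to separate all libraries of the sites and reach a mean of 5 CPM at the higher site, and predicted genes and the lists set aside were left out. Some genes found by the rule are not reported here, and further list members were named after their values were seen.

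Alternatives were library totals, DESeq2 size factors, no filter, DESeq2 1.42.0, limma-voom 3.58.1, the 14 totals alone, other weightings of lines, a replicate block, a test against a 2-fold change and leaving out each library. Figures used matplotlib 3.10.9 in Python 3.11.15, and R was 4.3.3. Promoter sequences are from RefSeq, and the promoter motifs and the 4 families given as shares were chosen after values were seen.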

Additional observations from a re-analysis of the deposited data

Results flagged for a closer look

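Levels of each named gene, the number of genes with a count and the mitochondrial share were examined for a library far from the others, in the 8 back and in the 6 tail totals. The lowest or highest library lay farther from its nearest neighbour than Dixon's test at the 95% level allows in 54 of 442 sets (12.2%), where chance alone flags about 5%. Of these, 21 fell on back Slc1a3 replicate 4, the library of the lowest depth, and all tests included it unless stated. It had 14436 genes with a count, 0.208% mitochondrial counts and outlying levels of Adamts14 (377 CPM), Aqp9 (4.60), Cers4 (7.15), Etv4 (18), Evpl (1167), G6pdx (73.8), Gdnf (18.4), Hk2 (33.2), Kcnh1 (6.51), Pkm (1159), Pmvk (43.8), Ppp1r3d (12), Ryk (118), Slc16a1 (16.6), Sox4 (173), Sptlc2 (12.5), Tead2 (2.43), Trp53 (71.0) and Trps1 (11.8). Leaving it out changed no call of these genes except that Pmvk and Trp53 then passed.

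In back Slc1a3 replicate 1 the outlying level was Grik4 (0.720 CPM), and in replicate 2 they were Cyp11b1 (0.513 CPM), Krt84 (2.82), Mettl7a3 (1.54), Olah (0.0427), Scd2 (47.7) and Wfdc17 (0.256). In back Aspm replicate 1 they were Cyp2b10 (72.0 CPM), Degs1 (109), Hhip (0.0702), S100b (0.281) and Slc7a8 (1.65), in back Aspm replicate 2 Ano1 (246.5) and Kcnk1 (0.765), and in back K14 replicate 4 Fam20a (0.145), Prkg2 (0.290) and Sox10 (0.725). In tail Slc1a3 replicate 1 they were Abca12 (4.96 CPM), Acadl (21.7), Acly (105), Atp2a2 (222.5), Celsr1 (248), Patj (28.6), Plxnb1 (197) and Ptges3 (100.6), and in replicate 2 Hpgds (2.24) and Pard6b (16.3). In tail Aspm replicates 1 and 2 they were Il1rn (18.5 CPM) and Tgm7 (0.527), in tail Dlx1 replicate 1 Col5a2 (48.4) and Gata3 (64.9), and in tail Dlx1 replicate 2 Fn1 (4.02) and Glul (635). The Olah level is a single read.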

How the results depend on the processing

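Of the 17493 genes, 7955 passed as reported, and 7110 to 8370 did with library totals, DESeq2 size factors, no low-count filter, DESeq2, limma-voom, the 14 totals alone, the Slc1a3 and Aspm lines alone or each library weighted equally. Leaving out each library gave 6796 to 8625. At least 2-fold, 3699 became 2051 in a test against a 2-fold change and 3298 to 3750 on leaving out a library. Leaving out a library gave 4019 to 7045 in the Slc1a3 line and 2008 to 5073 in the Aspm line. The difference between the lines passed for 0 genes as reported, 16 with library totals, 637 without the filter, 659 by DESeq2, and 0 to 15 on leaving out a library (2 without back Aspm replicate 1, 3 without tail Slc1a3 replicate 2 and 15 without back Slc1a3 replicate 1). The cause was not tested. Back and tail libraries of the same line and number deviated from their group means with r = -0.059 and -0.054 in the Slc1a3 line and 0.182 and 0.043 in the Aspm line over 10376 genes, so the numbers were not taken as pairs. With the replicate block 6174 genes passed in the 8 Slc1a3 and Aspm libraries, and 7016 in the same 8 without it, and Atp1b3, Pygb and Sptlc2 did not pass in either. Krt84 did not pass by DESeq2, and Pygb did not pass without the filter, in the 14 totals alone, in the Slc1a3 and Aspm lines alone or with each library weighted equally. Atp1b3 did not pass in the 14 totals alone or the Slc1a3 and Aspm lines alone. Pfkl did not pass without the filter or in the Slc1a3 and Aspm lines alone, and in their 8 libraries its log2 difference was 0.006 with the replicate block and -0.006 without it. Sox10 did not pass without replicate 1 of tail Slc1a3, tail Aspm or tail Dlx1. No other named gene changed direction with a call. The sign of the median was kept in all settings for 27 of 46 lists and changed in 19. Of 218 named genes 177 passed as reported and 174 to 177 on leaving out a library, and 22 list medians lay above 0 as reported and 19 to 27 on leaving out a library. Levels under 0.383 CPM can rest on 3 counts or fewer, and differences of genes at or near 0 depend on the prior count.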
